A study of Mus musculus with 12 samples.

Results

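Colony stimulating factors are secreted proteins that keep myeloid cells alive and direct their growth, and 7 genes encode the 3 factors and the receptor chains that bind them. The 7 genes were found by matching the Ensembl identifiers of the deposited count table to mouse gene symbols, and all 7 were among its 54232 genes. They were the ligand genes Csf1, Csf2 and Csf3 and the receptor genes Csf1r, Csf2ra, Csf2rb and Csf3r. Of these, 6 passed the filter on low counts (at least 10 counts in at least 2 libraries), which 16281 genes passed in all, and Csf2 did not.

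The cells were bone marrow derived macrophages (BMDMs) of wild-type C57BL/6 mice, grown by the methods of the study in medium with serum and added M-CSF, the protein that Csf1 encodes. They had been cultured for 5 days when medium conditioned by tumor cells (TCM) was added to some of them, and 500 nM R788 to some of both kinds, for a further 24 h. Fostamatinib, the drug R788, inhibits Syk, a tyrosine kinase that acts downstream of immune receptors. There were 6 groups of 2 libraries: no TCM and no R788 (NS, libraries SJ1 and SJ2), NB9464 TCM (SJ3 and SJ4), NBT3L TCM (SJ5 and SJ6), R788 alone (SJ7 and SJ8), NB9464 TCM + R788 (SJ9 and SJ10) and NBT3L TCM + R788 (SJ11 and SJ12). NB9464 is a mouse neuroblastoma line with amplified MYCN, and NBT3L is a line without that amplification. NB9464 TCM was made in DMEM without serum, while the preparation of NBT3L TCM, the vehicle of R788 and the medium that NS cells received were not given in the sources used here. The sources also do not say whether M-CSF was present during the last 24 h. A difference between TCM and NS therefore cannot be told apart from one of base medium, serum or M-CSF.

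CSF1 (M-CSF) binds CSF1R, a receptor tyrosine kinase that macrophages need to survive and that serves in the laboratory to grow them from bone marrow. CSF2 (GM-CSF) binds a receptor built of a specific α chain (Csf2ra) and a signaling β chain (Csf2rb), and signals through JAK2 and STAT5. CSF3 (G-CSF) binds CSF3R, the receptor best known for driving the production of neutrophils. Inflamed macrophages are a known source of CSF3, and mature macrophages carry CSF1R in abundance.

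The sequences upstream of Csf1 and Csf3r are shown because these are the members, after Csf3, with the largest rises in NB9464 TCM, and because each holds 1 match to the consensus of NF-kB, a factor that switches on many inflammatory genes. The windows come from the RefSeq promoter table (GRCm38.p6), cut at the start of the gene in GENCODE and written along the strand of the gene. Capitals mark the match, which reads as the consensus on the opposite strand.
Csf1, chr3:107760470-107760719, minus strand: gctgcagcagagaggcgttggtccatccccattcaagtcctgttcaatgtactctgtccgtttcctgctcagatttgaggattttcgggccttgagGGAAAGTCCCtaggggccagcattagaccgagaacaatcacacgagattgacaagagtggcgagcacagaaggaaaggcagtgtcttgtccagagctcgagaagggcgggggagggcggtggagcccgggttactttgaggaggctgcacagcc
Csf3r, chr4:126024409-126024549, plus strand: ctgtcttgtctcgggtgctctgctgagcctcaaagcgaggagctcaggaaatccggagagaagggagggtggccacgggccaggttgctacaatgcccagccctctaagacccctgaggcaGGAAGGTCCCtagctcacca
A match of this kind was held by 7.3% of all 32851 promoter windows at the 250 bases of Csf1 and by 3.8% at the 141 bases of Csf3r. On either strand, neither window held the core of PU.1 (GAGGAA), or the patterns searched for C/EBP (TTNNGNAAT), AP-1 (TGANTCA) and STAT (TTCNNNGAA). A match is a description of letters, and binding was not measured. The table also held windows for Csf2 and Csf2ra, without a match to any of the 5 motifs, and none was used for Csf3, Csf1r and Csf2rb. The Csf2 window, chr11:54249900-54250149, did not reach the GENCODE start of that gene at 54249667. The bases between them, next to the start, were not searched.

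The members lie apart in the genome (GRCm38, GENCODE M21, 1-based). Csf1 spans chr3:107741048-107760469, Csf2 chr11:54247271-54249667, Csf3 chr11:98701263-98703629, Csf1r chr18:61100598-61132149, Csf2ra chr19:61223957-61228429, Csf2rb chr15:78325752-78353847 and Csf3r chr4:126024550-126044440. Some of these genes share sequence with other genes, which can divide or merge their reads. Of the distinct 31-base words in its transcripts, Csf2rb shared 19.7% with other genes, mainly Csf2rb2, the neighbouring gene for the mouse-specific β chain of the IL-3 receptor. Csf3r shared 23.1%, most of them with a processed pseudogene, and Csf1r shared 14.95%, most of them with Hmgxb3, whose exons overlap its own by 873 bases on the opposite strand. Csf2 shared 9.22%, Csf2ra shared 0.44%, and Csf1 and Csf3 shared none.

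Libraries held between 44977847 and 56449685 counts and between 16149 and 18343 detected genes. The R788 library SJ8 stood apart, with the most counts and the fewest genes detected. All 7 macrophage markers other than Csf1r were expressed in every library, with summed levels between 1513992 and 2574450 normalized counts. Most of this sum was Lyz2, between 1320817 and 2070051. Other markers differed in direction. Adgre1 was between 72143 and 82673 without TCM and between 220715 and 394565 with it. Fcgr1 was between 12334 and 13973 without R788 and between 2874 and 6670 with it. Among other cells, the markers of T and NK cells (0 of 7 past the filter), B cells (2 of 5), mast cells and basophils (2 of 6) and dendritic cells (4 of 7) summed to at most 524 normalized counts in a library. The fibroblast markers (6 of 6) summed to between 1193 and 3402 and the endothelial markers (3 of 4) to between 688 and 1539. The endothelial markers were split. Kdr was between 646 and 1405 without TCM and between 31.1 and 424.5 with it. Pecam1 was between 17.6 and 57.3 without TCM and between 419 and 872 with it. The neuroblastoma markers (4 of 8) were at 0 in NS, at most 1.82 in R788 and between 25.8 and 77.8 in the 8 libraries with TCM, with Th at 0 throughout. In bulk RNA, more cells of a type and more RNA per cell cannot be told apart, so this applies to each level given here. The labels do not say whether 2 libraries of a group came from separate cultures or animals, so the p-values measure only the spread between these libraries.

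Per gene length, the receptors stood well above their ligands in cells without TCM. In TPM (counts divided by the gene length in the table and scaled to a fixed sum in each library), NS cells held 1245 ± 44.8 of Csf1r, 751 ± 23.7 of Csf2ra, 95.7 ± 8.35 of Csf2rb and 28.8 ± 6.09 of Csf3r (SD, n = 2). The TPM level of Csf1 in the same cells was 5.60 ± 0.826, that of Csf3 0.169 ± 0.118, and Csf2 had no count. Csf1r, Csf2ra, Csf2rb and Csf3r held this order in all 6 groups. Csf3 moved from below Csf1 in NS and R788 to above Csf2rb in both TCM groups without R788, where it stood at 180 ± 4.36 TPM (NB9464) and 244 ± 10.1 TPM (NBT3L).

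**Figure D1:**
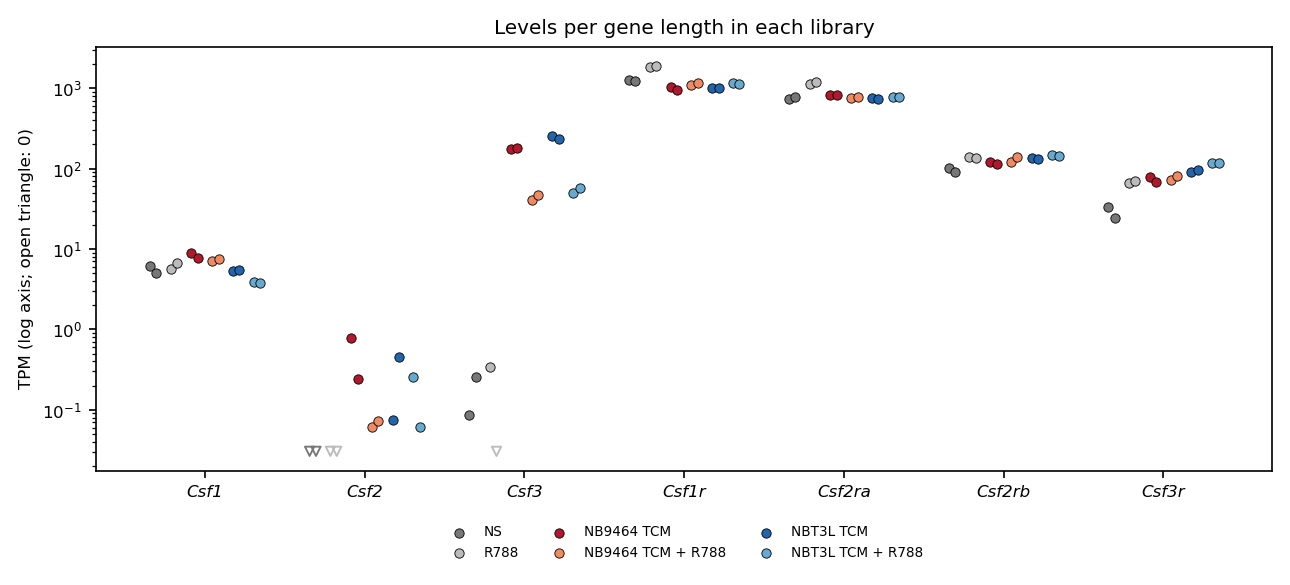
TPM (log axis) of each member in every library, with a point per library colored by group and open triangles for libraries without a count. The lowest value of Csf1r and Csf2ra is 735 TPM, while Csf3 spans from 0 to 251 TPM.

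Among the ligands, Csf3 showed the widest range. Its normalized counts (counts divided by the size factor of the library) were 1.88 and 5.69 in NS, and 7.27 and 0 in R788 alone, where SJ8 had no count. They were 4558 and 4965 in NB9464 TCM, and 7308 and 6902 in NBT3L TCM. With R788 they were 1152 and 1270 in NB9464 TCM, and 1460 and 1674 in NBT3L TCM. The libraries with TCM did not overlap those without it, and in either TCM the libraries given R788 had the lower counts. Fibroblasts can also make Csf3, and the fibroblast markers were split in their change with R788. Their sum rose from between 1466 and 1566 to between 1972 and 2257 in NB9464 TCM. In NBT3L TCM it rose from between 1801 and 2104 to between 3330 and 3402. Col1a1, Col1a2, Col3a1 and Pdgfra were higher in both TCM. Dcn was lower with R788, as Csf3 was, from 53.57 and 55.74 to 13.93 and 37.77 in NB9464 TCM. In NBT3L TCM Dcn went from 91.59 and 72.5 to 15.91 and 46.22. Lum went from 94.06 and 68.17 to 29.69 and 28.13 in NBT3L TCM, and overlapped in NB9464 TCM. In NS, Lum was at 7.513 and 1.896, Dcn at 49.78 and 9.482 and Col3a1 at 155.9 and 85.34, each lower than in either TCM without R788. Col1a2 (681.8 and 533.8 in NS) overlapped NS in both TCM. Col1a1 (605.8 and 549.0 in NS) overlapped NS in NB9464 TCM, and Pdgfra (16.91 and 13.27 in NS) in NBT3L TCM. The part of other cells in Csf3 was not tested. Summed over the group and divided by depth, Csf3 in NB9464 TCM was 1262 times its NS level (95% interval of the ratio 640 to 2925), from 10110 against 8 counts. In NBT3L TCM it was 1879 times the NS level (953 to 4353), from 12283 against 8 counts. These exact binomial intervals of the summed counts cover counting error only, and the 8 counts of NS limit them. They take each count as an independent read, and are too narrow if both reads of a pair were counted. With counts divided by 2, the DESeq2 SE of the log2 rise in NB9464 TCM went from 0.521 to 0.729.

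Csf1, the ligand that sustains macrophages, moved within a narrow range. Its normalized counts were 504 and 422 in NS, 445 and 520 in R788 alone, 862 and 795 in NB9464 TCM, and 572 and 590 in NBT3L TCM. With R788 they were 746 and 753 in NB9464 TCM, and 416 and 414 in NBT3L TCM. Both groups with NB9464 TCM lay above all other libraries, and NS and R788 overlapped. The lowest group, NBT3L TCM + R788, lay just under the lower NS library.

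Csf2 was near the limit of detection. It had 0 counts in both NS libraries and both R788 libraries, 12 and 4 counts in NB9464 TCM, and 1 and 7 in NBT3L TCM. With R788 it had 1 and 1 counts in NB9464 TCM, and 4 and 1 in NBT3L TCM. A library with 0 counts leaves an expected count of up to 3 open, if each count is an independent read. The bound is higher if both reads of a pair were counted. Both NB9464 TCM libraries had more than 3 counts, as did 1 library each of NBT3L TCM and NBT3L TCM + R788. That is no test of a difference, since 4 counts can also arise where 3 are expected. In the fit without the count filter, DESeq2 gave Csf2 no adjusted p in any of the 12 comparisons, so it could not be called. Its unadjusted p was 0.0504 for NB9464 TCM against NS and 0.0968 for NBT3L TCM against NS.

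**Figure D2:**
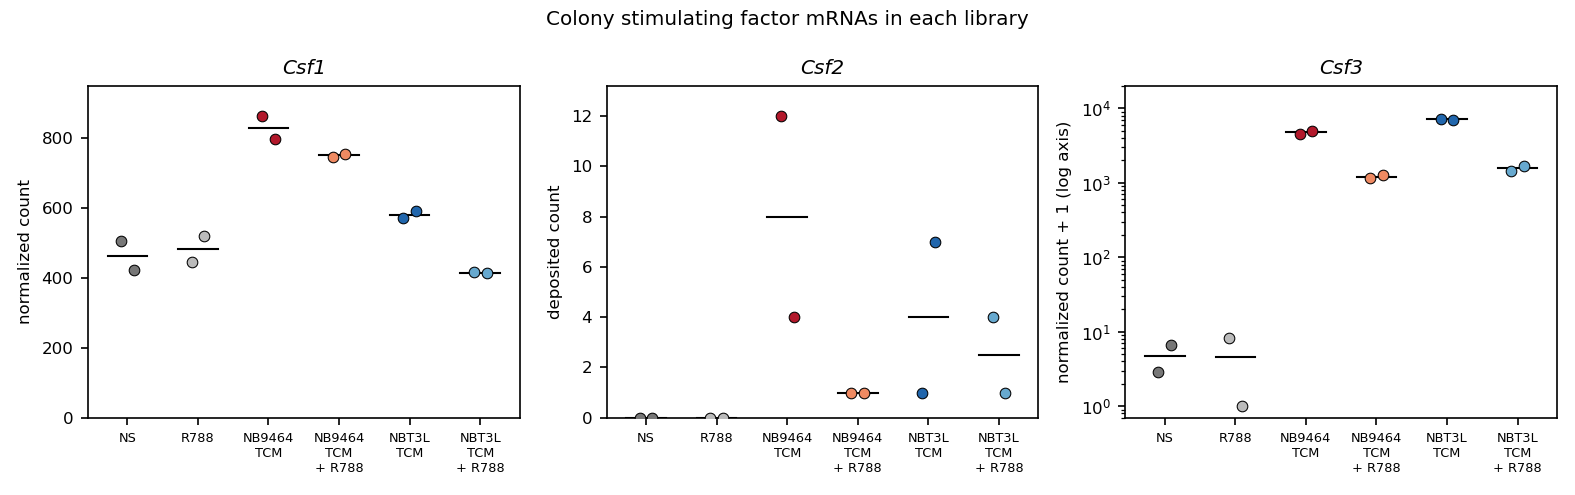
Normalized counts of Csf1, deposited counts of Csf2 and normalized counts of Csf3 plus 1 (log axis) in each library, with a point per library and a bar at the mean of the 2 libraries. Csf3 is near 0 without TCM, from 4558 to 7308 with TCM and between 1152 and 1674 with TCM and R788.

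The receptor Csf1r was the most abundant member in every library. Its normalized counts were 96379 and 94494 in NS, 133837 and 134344 in R788, 91337 and 90093 in NB9464 TCM, and 102764 and 102058 in NBT3L TCM. With R788 they were 106624 and 109345 in NB9464 TCM, and 116896 and 114684 in NBT3L TCM. R788 alone gave the highest level and NB9464 TCM the lowest, and no 2 neighbouring groups overlapped.

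Csf2ra, the chain that binds GM-CSF, was lowest in NS and highest in R788. Its normalized counts were 20994 and 22644 in NS, 31889 and 32620 in R788, 27899 and 29506 in NB9464 TCM, and 28815 and 28146 in NBT3L TCM. They were 28468 and 27760 in NB9464 TCM + R788, and 29529 and 29997 in NBT3L TCM + R788. NB9464 TCM overlapped NBT3L TCM, which overlapped NB9464 TCM + R788.

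Csf2rb, the signaling β chain that the receptors for GM-CSF, IL-3 and IL-5 share, was lowest in NS. Its normalized counts were 11424 and 10416 in NS, 15477 and 14571 in R788, 15862 and 16068 in NB9464 TCM, and 20075 and 19601 in NBT3L TCM. With R788 they were 17904 and 19392 in NB9464 TCM, and 21821 and 21303 in NBT3L TCM. NBT3L TCM + R788 was the highest group, and no 2 neighbouring groups overlapped.

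Csf3r, the receptor for G-CSF, showed the widest range among the receptors. Its normalized counts were 1846 and 1409 in NS, 3603 and 3692 in R788, 5213 and 4727 in NB9464 TCM, and 6685 and 7146 in NBT3L TCM. With R788 they were 5219 and 5615 in NB9464 TCM, and 8778 and 8856 in NBT3L TCM. The groups rose from NS through R788, NB9464 TCM, NB9464 TCM + R788 and NBT3L TCM to NBT3L TCM + R788, and neighbours in that order did not overlap. Csf3r is also a gene of neutrophils, and 9 of 10 neutrophil markers passed the filter. Their summed level was between 6536 and 7657 normalized counts without TCM and between 7966 and 11364 with TCM. The higher sum rested on S100a8, which was between 671 and 1369 without TCM and between 5000 and 8055 with TCM. Without S100a8 the sum was between 5866 and 6288 without TCM and between 2967 and 3645 with it. Within it Ngp went from between 1687 and 1804 to between 504 and 890 and Ltf from between 1510 and 2132 to between 347 and 651. Mpo, Elane and Cxcr2 were also lower with TCM, and Ly6g, the defining marker, reached 3.79 at most. Camp was between 189 and 228.5 without TCM, and higher in NBT3L TCM without and with R788, between 289 and 366. In NB9464 TCM without and with R788 it was between 177 and 281.5. S100a9 overlapped, at 1638 to 2596 without TCM and 1595 to 2098 with it. The part of these cells in the level of Csf3r was not tested.

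**Figure D3:**
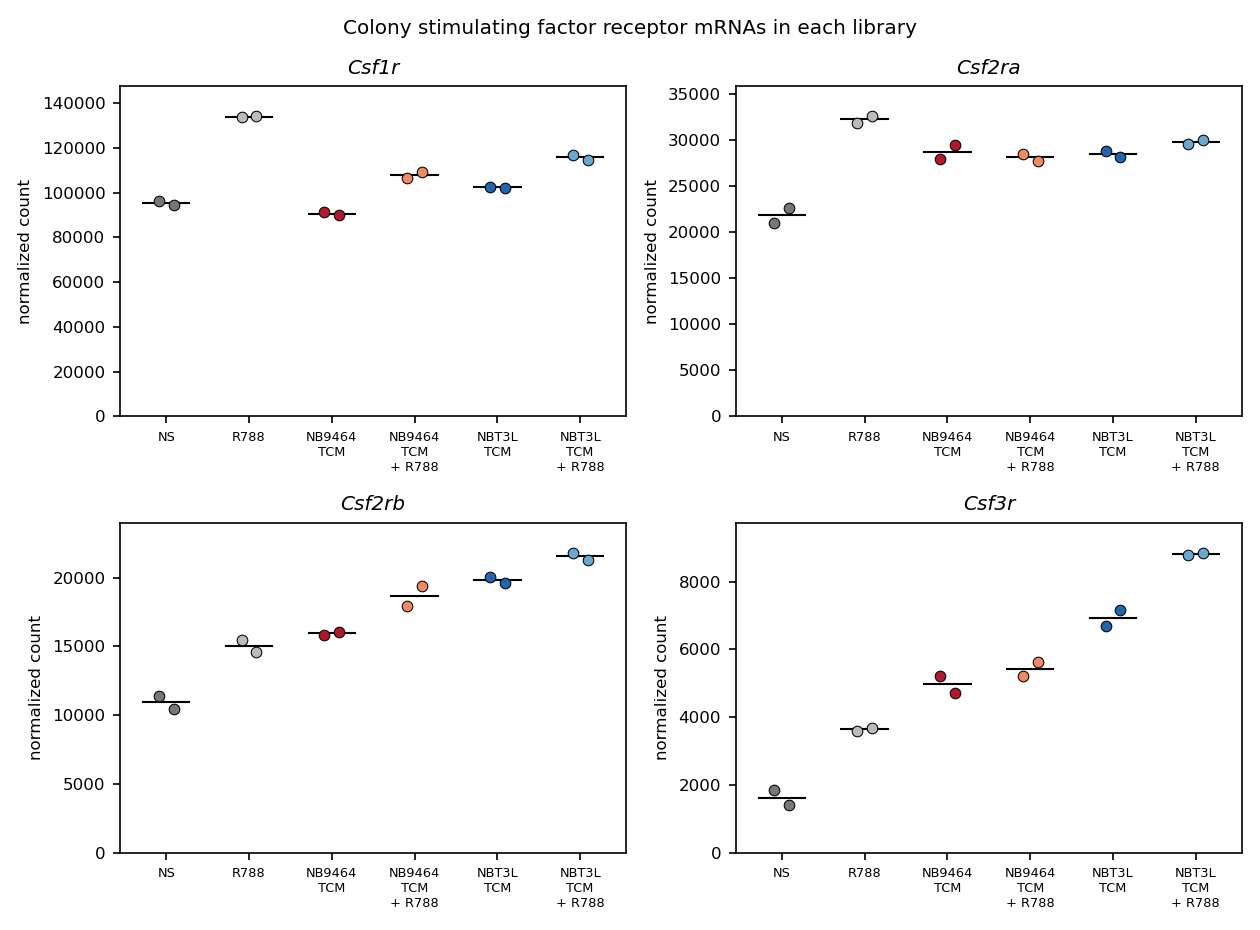
Normalized counts of the 4 receptor genes in each library on linear axes from 0, with a point per library and a bar at the group mean. R788 alone is the highest group for Csf1r and Csf2ra, and NBT3L TCM + R788 is the highest for Csf2rb and Csf3r.

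The first question was how TCM changed these genes in cells without inhibitor. In NB9464 TCM, 5 of the 6 members tested were higher than in NS and none was lower, beside 17.2% of all 16281 genes called higher and 34.1% called either way. The median log2 fold change of the 6 was 0.69, against 0.02 over all genes. On the log2 scale, with SE, Csf3 rose by 10.30 ± 0.52 (adjusted p = 3.6e-85 in DESeq2) and Csf3r by 1.61 ± 0.10 (adjusted p = 1.69e-53), so both the ligand and the receptor of G-CSF were higher. Csf1 rose by 0.84 ± 0.17 (adjusted p = 4.14e-06), Csf2rb by 0.55 ± 0.06 (adjusted p = 1.13e-17) and Csf2ra by 0.40 ± 0.05 (adjusted p = 4.51e-13). Csf1r had a log2 fold change of -0.07 ± 0.04 (adjusted p = 0.134), with a 95% interval from -0.15 to 0.002. Without SJ7 or SJ8, which are in neither group but share the fit, Csf1r was called lower (adjusted p = 0.0463 and 0.0373).

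In NBT3L TCM, 5 of the 6 members were higher than in NS and none was lower, beside 18.0% of genes called higher and 35.3% called either way. This comparison shares the NS libraries with the one above. Csf3 rose by 10.88 ± 0.52 (adjusted p = 5.64e-95), Csf3r by 2.09 ± 0.10 (adjusted p = 1.07e-89), Csf2rb by 0.86 ± 0.06 (adjusted p = 1.2e-42) and Csf2ra by 0.38 ± 0.05 (adjusted p = 2.3e-12). Csf1 had a log2 fold change of 0.33 ± 0.17 with a 95% interval from -0.009 to 0.66 (adjusted p = 0.131). Csf1r was 0.10 ± 0.04 higher (adjusted p = 0.0242), and its call was lost with edgeR (adjusted p = 0.071) and without any of SJ1, SJ2, SJ5, SJ6, SJ11 or SJ12 (adjusted p from 0.0593 to 0.209).

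The direction of Csf1r depended on the scaling. Scaling by total counts moved the median log2 fold change of all genes tested to -0.10 in NB9464 TCM against NS and to -0.23 in NBT3L TCM against NS. Under it, Csf1r was lower in both, by a log2 fold change of -0.20 (adjusted p = 5.91e-06) and -0.13 (adjusted p = 0.0049). Its TPM level was likewise 992 ± 45.6 in NB9464 TCM and 1017 ± 5.75 in NBT3L TCM, against 1245 ± 44.8 in NS. Of all genes called, the share that was higher was 35.4% in NB9464 TCM and 26.8% in NBT3L TCM under it, against 50.5% and 51.1%. In each comparison Csf3, Csf3r, Csf2rb and Csf2ra stayed higher under this scaling, as did Csf1 in NB9464 TCM. Their smallest value was that of Csf2ra in NBT3L TCM, with a log2 fold change of 0.15 (adjusted p = 0.00731). In TPM that rise was not seen, since Csf2ra stood at 747 ± 13 in NBT3L TCM and 751 ± 23.7 in NS, beside 829 ± 2.75 in NB9464 TCM.

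**Figure D4:**
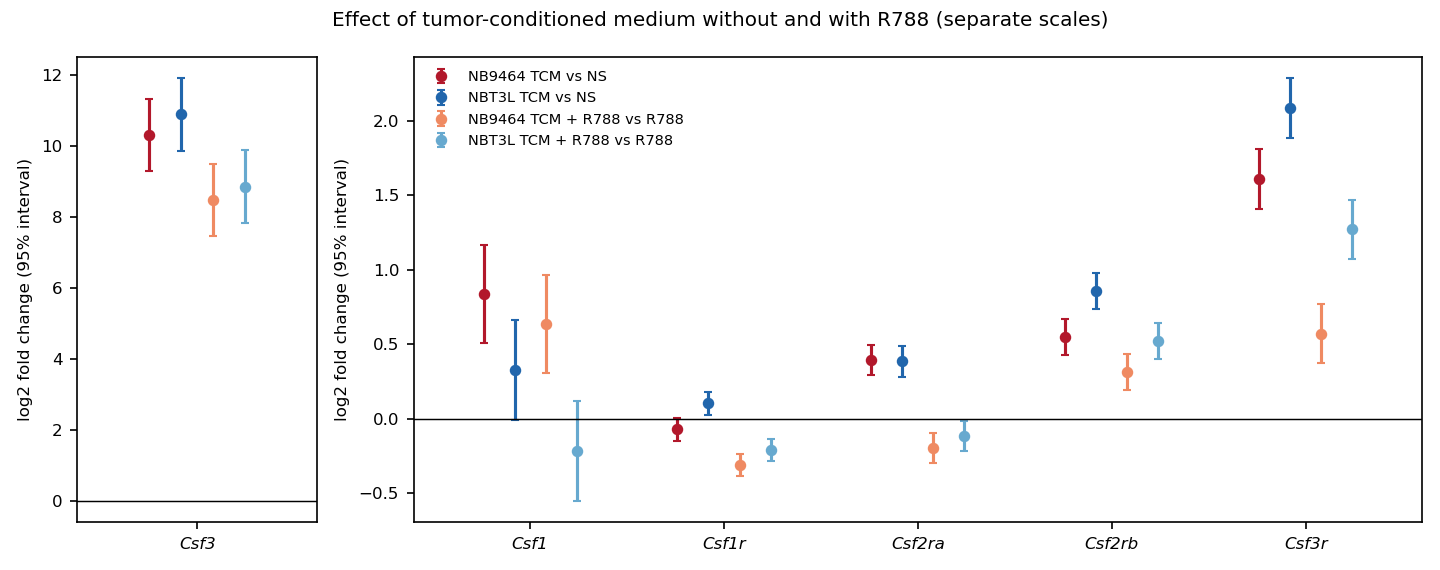
Log2 fold change of each TCM against the matching group without TCM, without and with R788, with 95% intervals from DESeq2. Csf3 has its own axis, with values from 8.47 to 10.88, and the other 5 members lie between -0.31 and 2.09.

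The β chain gene of the IL-3 receptor moved the other way from its neighbour. Csf2rb2 had normalized counts of 8583 and 8090 in NS, 6368 and 6210 in NB9464 TCM, and 7787 and 7700 in NBT3L TCM. It was lower in NB9464 TCM than in NS (log2 fold change -0.41 ± 0.06, adjusted p = 2.2e-09) and was not called in NBT3L TCM (-0.11 ± 0.06). In TPM, Csf2rb was 0.854 times Csf2rb2 in NS and 1.65 and 1.67 times Csf2rb2 in NB9464 TCM and NBT3L TCM. With the counts of both genes summed, Csf2rb remained called higher in both TCM, with a smallest log2 fold change of 0.21 in NB9464 TCM (adjusted p = 0.00123).

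The 2 TCM differed from each other in most members. In NB9464 TCM against NBT3L TCM, 5 of 6 members were called, 1 higher and 4 lower, beside 9.40% of all genes called. Csf1 was higher in NB9464 TCM (0.51 ± 0.17, adjusted p = 0.0233). Csf3 (-0.58 ± 0.11, adjusted p = 2.01e-06), Csf3r (-0.48 ± 0.10, adjusted p = 5.6e-05), Csf2rb (-0.31 ± 0.06, adjusted p = 1.05e-05) and Csf1r (-0.17 ± 0.04, adjusted p = 0.000114) were lower. For Csf2ra the log2 fold change was 0.011 with a 95% interval from -0.09 to 0.11. The call of Csf1 was lost without any of SJ3, SJ4, SJ5 or SJ6 (adjusted p from 0.0973 to 0.283), and that of Csf1r was lost when libraries were scaled by total counts (adjusted p = 0.279).

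The next question was what R788 did in cells without TCM. All 4 receptors rose and neither tested ligand was called, so that 4 of 6 members were higher, beside 11.6% of all genes called higher and 26.6% called either way. Csf3r rose most, by 1.16 ± 0.10 (adjusted p = 1.17e-27), which is 2.24-fold. Csf2ra rose by 0.56 ± 0.05 (adjusted p = 2.33e-25), Csf1r by 0.49 ± 0.04 (adjusted p = 1.2e-35) and Csf2rb by 0.46 ± 0.06 (adjusted p = 2.24e-12). These 4 calls were kept under every alternative run, including the fit without SJ8. Scaling by total counts raised the share of higher genes among all calls from 43.5% to 55.5%. Csf1 had a log2 fold change of 0.06 with a 95% interval from -0.27 to 0.39. For Csf3, with 8 counts in each group, the interval from -1.58 to 1.28 spanned both directions. Syk itself, the target of R788, rose by 0.26 ± 0.05 (adjusted p = 3.42e-06).

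In both TCM, Csf3 was lower with R788 than without it. In NB9464 TCM + R788 against NB9464 TCM, 3 of 6 members were called, 2 higher and 1 lower, beside 14.5% of all genes. Csf3 fell by 1.98 on the log2 scale (SE 0.11, adjusted p = 9.31e-70), to 0.254 of its level. Csf1r rose by 0.25 ± 0.04 (adjusted p = 2.15e-09) and Csf2rb by 0.22 ± 0.06 (adjusted p = 0.00279), and without SJ10 the latter was 0.16 (adjusted p = 0.161). Csf1, Csf2ra and Csf3r were not called, with log2 fold changes of -0.14, -0.03 and 0.12.

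In NBT3L TCM + R788 against NBT3L TCM, 4 of 6 members were called, 2 higher and 2 lower, beside 12.6% of all genes. Csf3 fell by 2.18 on the log2 scale (SE 0.11, adjusted p = 6.65e-87), to 0.221 of its level. Csf1r rose by 0.18 ± 0.04 (adjusted p = 7.47e-05) and Csf3r by 0.35 ± 0.10 (adjusted p = 0.00524), and the call of Csf3r was lost without SJ5, SJ11 or SJ12 (adjusted p from 0.0625 to 0.12). Csf1 fell by 0.49 on the log2 scale (adjusted p = 0.0346). That call was lost with edgeR (adjusted p = 0.0508), with counts divided by 2 (adjusted p = 0.0647), in a fit of only the libraries compared (adjusted p = 0.0504), and without any of SJ3, SJ4, SJ5, SJ6, SJ9, SJ10, SJ11 or SJ12 (adjusted p from 0.0556 to 0.248). Csf2ra and Csf2rb were not called, with log2 fold changes of 0.06 and 0.12.

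**Figure D5:**
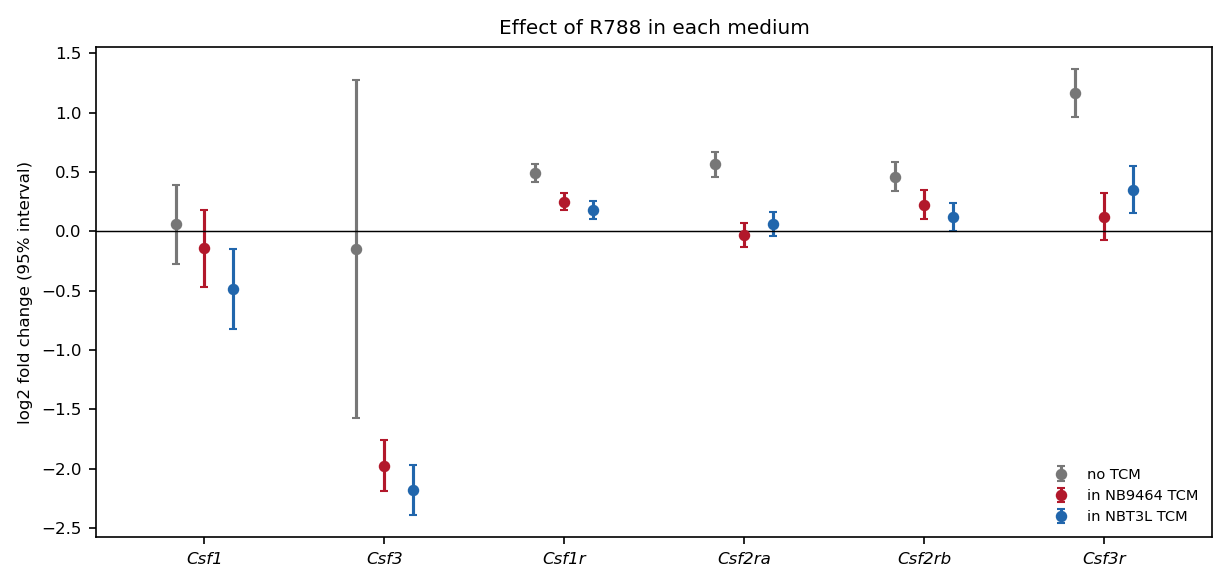
Log2 fold change of R788 against no R788, with 95% intervals from DESeq2, for cells without TCM (grey), with that of NB9464 (red) and with that of NBT3L (blue). The receptors lie highest without TCM, up to 1.16 for Csf3r, and Csf3 lies at -1.98 and -2.18 in the 2 TCM.

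Interaction contrasts tested whether R788 acted on the members to a different extent in each medium. In NB9464 TCM against no TCM, 4 of 6 members were called, all toward a smaller effect in TCM, beside 12.5% of all genes. The difference in log2 effect was -1.04 ± 0.14 for Csf3r (adjusted p = 4.72e-11), -0.59 ± 0.07 for Csf2ra (adjusted p = 1.12e-13), -0.24 ± 0.05 for Csf1r (adjusted p = 0.0002) and -0.24 ± 0.09 for Csf2rb (adjusted p = 0.0443). The call of Csf2rb was lost with edgeR (adjusted p = 0.106), with Csf2rb2 counts added (adjusted p = 0.745), and without any of 9 libraries (SJ2, SJ3, SJ4, SJ5, SJ6, SJ7, SJ9, SJ11 or SJ12, adjusted p from 0.0792 to 0.295). For Csf3 the difference was -1.83 ± 0.74 (adjusted p = 0.0728). It was called without SJ8 (-2.92, adjusted p = 0.0011) and turned to 2.71 without SJ7 (adjusted p = 0.414), the R788 library that holds all 8 counts of its group.

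In NBT3L TCM against no TCM, 5 of 6 members were called, beside 10.1% of all genes. The difference was -0.81 ± 0.14 for Csf3r (adjusted p = 7.35e-07), -0.50 ± 0.07 for Csf2ra (adjusted p = 9.57e-10), -0.34 ± 0.09 for Csf2rb (adjusted p = 0.0017) and -0.31 ± 0.05 for Csf1r (adjusted p = 3.47e-07). With Csf2rb2 counts added, that of Csf2rb was -0.15 (adjusted p = 0.259). For Csf3 the difference was -2.03 ± 0.74 (adjusted p = 0.0454). It was lost with edgeR (adjusted p = 0.266) and without any of SJ1, SJ2, SJ5, SJ6 or SJ11 (adjusted p from 0.0564 to 0.283), and it turned to 2.50 without SJ7 (adjusted p = 0.477). Both interactions share the NS and R788 libraries. Between the 2 TCM, the effect of R788 differed for 0 of 6 members in DESeq2, with 0 at an unadjusted p under 0.05 in either DESeq2 or edgeR and 0 called by edgeR, beside 0.706% of all genes.

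With R788 in every group, NB9464 TCM against R788 alone gave 6 of 6 members called, 4 higher and 2 lower, beside 40.4% of all genes. Csf3 rose by 8.47 ± 0.52, Csf1 by 0.63 ± 0.17, Csf3r by 0.57 ± 0.10 and Csf2rb by 0.31 ± 0.06 (adjusted p from 8.81e-58 to 0.000668). Csf1r (-0.31 ± 0.04, adjusted p = 3.9e-15) and Csf2ra (-0.20 ± 0.05, adjusted p = 0.00059) were lower. Under scaling by total counts, where the median of all genes stood at -0.20, Csf2rb was 0.10 (adjusted p = 0.208), and its TPM level was 130 ± 11.8 in NB9464 TCM + R788 beside 139 ± 2.85 in R788.

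In NBT3L TCM + R788 against R788 alone, 4 of 6 members were called, 3 higher and 1 lower, beside 41.4% of all genes. Csf3 rose by 8.85 ± 0.52, Csf3r by 1.27 ± 0.10 and Csf2rb by 0.52 ± 0.06 (adjusted p from 5.35e-63 to 2.69e-16), and Csf1r was lower (-0.21 ± 0.04, adjusted p = 1.89e-07). Csf1 was -0.22 ± 0.17 (adjusted p = 0.325) and Csf2ra was -0.12 ± 0.05 (adjusted p = 0.0594), and both were called lower under scaling by total counts (-0.50 and -0.40), where the median of all genes stood at -0.28. Without SJ7, Csf2ra was called lower (-0.14, adjusted p = 0.0324).

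Between the 2 TCM in the presence of R788, 4 of 6 members were called, beside 9.62% of all genes. Relative to NBT3L TCM + R788, 1 was higher in NB9464 TCM + R788 and 3 were lower. Csf1 was higher (0.85 ± 0.17, adjusted p = 2.05e-05), and Csf3r (-0.70 ± 0.10, adjusted p = 2.26e-10), Csf3 (-0.37 ± 0.11, adjusted p = 0.012) and Csf2rb (-0.21 ± 0.06, adjusted p = 0.0096) were lower. Csf3 lost its call with edgeR (adjusted p = 0.147) and without SJ9 or SJ12 (adjusted p = 0.218 and 0.309). Csf2rb lost its call without SJ9, SJ11 or SJ12 (adjusted p from 0.0717 to 0.277). Csf1r was -0.10 ± 0.04 (adjusted p = 0.0722) and was called without SJ7 or SJ8 (adjusted p = 0.0143 and 0.0168).

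Other genes of the pathway were counted over 5 lists. The share of all genes called either way, the background for these counts, was 34.1% for NB9464 TCM and 35.3% for NBT3L TCM against NS, 26.6% for R788 alone, and 14.5% and 12.6% for R788 in NB9464 TCM and in NBT3L TCM. Of 9 close relatives of the ligands and receptors, 5 passed the filter, and Il34, the second ligand of CSF1R, was not among them, nor were Il3, Il5 and Il5ra. Of the 5, 1 rose and 2 fell in NB9464 TCM. Kitl, the ligand of the receptor KIT, had a mean of 518 normalized counts in NS. It was lower in NB9464 TCM (log2 fold change -4.06, adjusted p = 4.64e-17), in NBT3L TCM (-3.88, adjusted p = 1.66e-15) and in R788 alone (-2.31, adjusted p = 1.88e-06). Il3ra, the α chain of the IL-3 receptor that pairs with Csf2rb, rose by 0.41 ± 0.13 in NB9464 TCM (adjusted p = 0.00508) and by 0.50 ± 0.13 in R788 (adjusted p = 0.000671).

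All 29 genes of the list of CSF receptor signaling were tested. Against NS, 13 rose and 4 fell in NB9464 TCM (58.6% of the list), with a median log2 fold change of 0.08, and in NBT3L TCM 15 rose and 3 fell (62.1%), with a median of 0.22. The median over all genes tested lay between -0.01 and 0.02 in each of the 12 comparisons. Jak2, the kinase bound to Csf2rb, rose by 1.39 ± 0.10 in NB9464 TCM and by 1.87 ± 0.10 in NBT3L TCM (adjusted p = 2.58e-43 and 1.08e-78). Syk, the target of R788, rose by 1.18 in NB9464 TCM and by 1.32 in NBT3L TCM. R788 alone gave 9 higher and 3 lower, among them Fgr (0.81 ± 0.08), Cblb (-0.66 ± 0.12) and Dok2 (-0.57 ± 0.08). R788 in NB9464 TCM gave 11 higher and 2 lower, and in NBT3L TCM 10 higher and 2 lower. Dok2, an adaptor that restrains receptor signaling, was lower in both (-0.54 and -0.35). Pik3r1 was higher in both (0.41 ± 0.08 and 0.33 ± 0.08). Jak2 was higher with R788 in NB9464 TCM (0.46 ± 0.10), and Fgr in NBT3L TCM (0.50 ± 0.08).

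Of 12 targets and feedback genes of JAK and STAT5, 11 were tested, and Ccl17 was not. In NB9464 TCM against NS 5 rose and 1 fell (median -0.07), and in NBT3L TCM 4 rose and 2 fell (median 0.70). The feedback inhibitor Socs3, at a mean of 489 normalized counts in NS, reached 18506 in NB9464 TCM, a log2 rise of 5.24 ± 0.18 (adjusted p = 1.16e-180). Its mean in NBT3L TCM was 20825, a log2 rise of 5.41 ± 0.18 (adjusted p = 1.21e-192). The kinase Pim2 rose from 135 to 3563 and 3050, and Socs1 from 249 to 1121 and 2645. Other genes of the list stayed low, with Cish at most 39.9 and Socs2 at most 30.3 normalized counts in any library. Irf4 was at 95.8 and 64.5 in NS, 47.8 and 0 in NB9464 TCM, and 17.3 and 19.5 in NBT3L TCM. The activity of STAT5 was not tested. R788 alone raised none and lowered 5, among them Socs3 (-0.77, adjusted p = 0.00036), Socs1 (-0.77, adjusted p = 0.000227) and Pim1 (-0.55, adjusted p = 4.64e-07). Within NB9464 TCM, R788 raised 1 and lowered 4, and within NBT3L TCM it raised 1 and lowered 3. In NB9464 TCM, Osm, a cytokine gene that STAT5 induces, fell from a mean of 680 to 293 with R788 (log2 fold change -1.22 ± 0.30, adjusted p = 0.000748). Pim2 was 7683 there with R788, above its level without it (adjusted p = 3.46e-39), and Socs3 was lower (-0.48 ± 0.18, adjusted p = 0.0376). In NBT3L TCM, R788 raised Pim2 by 1.15 ± 0.08 (adjusted p = 1.83e-41), Bcl2l1, which protects cells from apoptosis, was at -0.52 ± 0.07 (adjusted p = 9.34e-12), and Socs3 was lower by -0.68 ± 0.18 (adjusted p = 0.0014).

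All 15 genes of a list of transcription factors and regulators of colony stimulating factor genes were tested. With NB9464 TCM, 9 rose and 2 fell against NS (median 0.37), and with NBT3L TCM 8 rose and 4 fell (median 0.21). The largest rises in both were those of Cebpd, a C/EBP factor (1.72 and 1.63), Nfkbia, the inhibitor that NF-kB induces (1.53 and 1.71), and Ets2 (1.29 and 1.25). In R788 alone 6 rose and 4 fell. Cebpd rose by 1.22 ± 0.07 there, Fos fell by 1.23 on the log2 scale and Zfp36, whose protein shortens the life of cytokine mRNAs, fell by 0.90. Within NB9464 TCM, R788 raised 6 and lowered 2, with Ets2 at -0.59 ± 0.05, Nfkb2 at 0.52 ± 0.07 and Cebpa at 0.49 ± 0.09. Within NBT3L TCM it raised 4 and lowered 3, with Ets2 at -0.46 ± 0.05, Nfkb2 at 0.42 ± 0.07 and Cebpa at 0.54 ± 0.09.

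The 5 genes of receptor shedding, the release of receptors such as CSF1R from the cell surface, were all tested. In NB9464 TCM against NS 1 rose and 1 fell, 40% of the list and near the share of all genes, and in NBT3L TCM 2 rose and 1 fell. Adam10 was lower in both (-0.83 ± 0.06 and -0.84 ± 0.06) and Rhbdf2, which brings ADAM17 to the surface, was higher (0.73 ± 0.07 and 0.89 ± 0.07). Adam17, the protease itself, rose with R788 in every medium, by 0.17 without TCM (adjusted p = 0.0176), by 0.24 with that of NB9464 (adjusted p = 0.000881) and by 0.22 with that of NBT3L (adjusted p = 0.00283). Rhbdf2 rose with R788 alone (0.35 ± 0.07, adjusted p = 1.58e-06) and was lower with R788 in the TCM of NB9464 (-0.22 ± 0.07, adjusted p = 0.0079) and of NBT3L (-0.22 ± 0.07, adjusted p = 0.00722).

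For each member with enough counts, the genes of most similar pattern were taken from 10709 genes as those with the smallest root mean square difference in centred log2 level over the 6 groups, which is a description over group means. For Csf1r they were Zfyve1, Kif13a and Terf2ip, with differences from 0.038 to 0.046 beside a spread of 0.186 of Csf1r itself. For Csf2ra they were Osgin1, Tmppe and Tbkbp1 (0.040 to 0.044, spread 0.174), and for Csf2rb they were Acp2, Ric1 and Creg1 (0.045 to 0.060, spread 0.323). For Csf3r they were AI429214, Bvht and Orai2 (0.101 to 0.163, spread 0.784), and for Csf1 they were Eme2, Junos and Grap (0.065 to 0.160, spread 0.367). For Csf3 they were the cytokine gene Il1a, Cd38 and Il12b (1.02 to 1.04, spread 4.63). These were alike in being low without TCM and high with it, and less so in the fall with R788. In NB9464 TCM the mean of Csf3 went from 4762 to 1211 with R788, and that of Il1a from 1723 to 1295. Cd38 went from 16166 to 16445 and Il12b from 613 to 735. In NBT3L TCM, Csf3 went from 7105 to 1567, Il1a from 4384 to 2067, Cd38 from 12458 to 10866 and Il12b from 664 to 303.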

How the data were processed

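RNA of 12 libraries of mouse BMDMs, in 6 groups of 2, was sequenced after poly(A) enrichment. The authors deposited whole-number read counts per Ensembl gene, not normalized for depth or length, beside a gene length. By the study's methods reads were mapped to mm10 with STAR and quantified with Salmon, and the submitters' processing notes name STAR 2.6.1d, Salmon 1.4.0, SAMtools 1.9, Picard 2.26 and MultiQC 1.11. Use of strand and treatment of reads with several matches were not given in the sources used here. The labels describe paired reads, whereas the methods describe single reads. Even values made up between 65.2% and 67.9% of the counts from 1 to 40 in each library, as arises when both mates are counted, so counts divided by 2 were tried. Symbols came from GENCODE M21 (GRCm38), which held 54165 of 54232 identifiers, and gene lengths equaled its merged exons for 97.3% of them. For Csf1r and Csf2ra the lengths in the table were 4885 and 1849 bases against 5774 and 2871 merged, so their TPM values depend on that choice.

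The filter of 10 counts in 2 libraries left the genes for DESeq2 1.42.0 (R 4.3.3), which the study also used. Its default size factors, 6 group means fitted together, two-sided Wald tests and Benjamini-Hochberg adjustment within each comparison were applied, with calls at an adjusted p under 0.05. Fold changes carry standard errors and 95% intervals, and levels carry the SD of 2 libraries. Alternatives were edgeR 4.0.16 (quasi-likelihood, TMM), TMM or total-count scaling, other filters, halved counts, Csf2rb and Csf2rb2 summed, a fit of only the libraries compared, and each library left out. The fits were tested on simulated counts. The members, the 5 gene lists and the 9 marker lists were chosen with earlier results of these data known, and the lists have no test of their own. Named from each list were at most 3 called genes per comparison, those that changed most and averaged 100 normalized counts or more, and Csf2rb2, and 1 gene that this rule named is not reported here. With 2 libraries per group the p-values depend on how DESeq2 models the variance. Library totals were between 44977847 and 56449685 counts.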

Additional observations from a re-analysis of the deposited data

Results flagged for a closer look

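The effect of R788 on several members differed between media by a test of the difference itself. Relative to cells without TCM, the log2 effect of R788 in NB9464 TCM differed by -1.04 for Csf3r, by -0.59 for Csf2ra, by -0.24 for Csf1r and by -0.24 for Csf2rb (-0.236). In NBT3L TCM it differed by -0.81 for Csf3r, by -0.50 for Csf2ra, by -0.34 for Csf2rb, by -0.31 for Csf1r and by -2.03 for Csf3. The value of Csf3 rests on 8 counts in each group without TCM, and those of Csf2rb shrank to -0.05 and -0.15 when the counts of Csf2rb2 were added (adjusted p = 0.745 and 0.259). The cause was not tested.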

How the results depend on the processing

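Of 72 values (6 members in 12 comparisons), 50 kept their direction and their side of the threshold under all alternatives. Over the 9 alternatives other than leaving out a library, 618 values did so, 21 lost a call, 6 gained one and 1 turned: Csf1r in NBT3L TCM against NS, at -0.13 with total-count scaling. That scaling also left 2 of 6 members called between the 2 TCM with R788, against 4. Leaving out each library gave 2 to 4 members called for R788 in NBT3L TCM, and 2 to 5 between the 2 TCM with R788. Over these fits 803 values kept their direction and side of the threshold, 41 lost a call, 6 gained one and 9 turned. Those that turned were not called or rest on few counts. The log2 fold changes then ranged from -0.064 to 0.19 for Csf1 and from -4.68 to 0.94 for Csf3 in R788 against NS, and for Csf2ra from -0.07 to 0.011 for R788 in NB9464 TCM and from -0.032 to 0.05 between the 2 TCM. The interaction of Csf3 (NB9464 TCM, -2.92 to 2.71 and NBT3L TCM, -3.13 to 2.50) was positive without SJ7. A group left with 1 library was assumed to vary like the others. Csf1 received no adjusted p in 6 fits for the effect of R788 between the 2 TCM, and these are left out. Without the count filter no call of the 6 members changed. No paired analysis was possible because each library carries its own number and no number is shared between groups. Depth limits Csf2 in all groups and Csf3 without TCM.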
